A study of Mus musculus with 6 samples.

Results

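The glucocorticoid receptor Nr3c1, the cortisone reductase Hsd11b1 and 6 genes that glucocorticoids are well known to induce (Fkbp5, Zbtb16, Tsc22d3, Klf9, Klf15 and Ddit4) were examined in kidneys of iron-deficient pups. These 8 of the 24422 genes counted were chosen by name, after their counts in these same kidneys had been seen in the comparison of FeD with control. Their differences between the groups are therefore a description and carry no test. RNA was sequenced from the kidneys of 6 wild type C57BL/6 pups at postnatal day 15. The 3 FeD pups (nutritional iron deficiency) came from dams on a synthetic diet with about 2 to 6 ppm iron, and the 3 control pups from dams whose diet held 220 ppm iron; both diets were begun before mating and kept up until the pups were taken. The model therefore joins iron deficiency of the dam, of the fetus and of the suckling pup. The number of litters was not given in the sources used here, and litter and diet cannot be told apart.

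Glucocorticoids (corticosterone in mice) are made by the adrenal cortex and bind a receptor that waits in the cytoplasm in a complex with Hsp90 and its cochaperones. The bound receptor moves to the nucleus, where pairs of receptors bind palindromic DNA elements and activate nearby genes, while it also restrains inflammatory genes. Inside the cell Hsd11b1 makes active hormone from its inert 11-keto form and Hsd11b2, abundant in the distal nephron, does the reverse. In the kidney the hormone is known for effects on sodium transport, gluconeogenesis and late maturation of the tubules. Fkbp5, Tsc22d3 (GILZ), Zbtb16 (PLZF), Klf9 and Ddit4 (REDD1) are common readouts of receptor activity, although several of them answer to other signals too.

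Counts on genes totalled 18312543, 16189041 and 20374327 in control kidneys 1, 2 and 3 and 17833878, 13732173 and 20853293 in FeD kidneys 1, 2 and 3. Levels are given as normalized counts, scaled by edgeR's TMM factors to the mean library, or as CPM, a gene's share of the scaled library total. A floor of 3 counts stood at 0.145 to 0.218 CPM, which covers counting error only. All 12 kidney markers, among them Slc12a1 of the thick ascending limb, the most abundant of them over the 6 kidneys together, were above that floor in every kidney. Their sum was 15424, 15610.1 and 16529 CPM in control kidneys 1, 2 and 3 and 11016, 9144 and 13391 CPM in FeD kidneys 1, 2 and 3, and by edgeR 5 of them fell and 1 rose, beside 23.3% and 22.4% of all tested genes. Slc34a1 of the proximal tubule, named after its values were seen, exceeded Slc12a1 in every control kidney and stood at 3816, 4089.8 and 4159.9 in control kidneys 1, 2 and 3 and 995, 836 and 753 in FeD kidneys 1, 2 and 3 CPM. FeD kidney 2 stood apart in its adrenal transcripts. The 12 adrenal cortex markers summed to 117, 50.3 and 47.0 CPM in control kidneys 1, 2 and 3 and 50.4, 951 and 71.0 CPM in FeD kidneys 1, 2 and 3. All 12 had their highest value in FeD kidney 2. Its Cyp21a1, the steroid 21-hydroxylase, stood at 193 CPM against 0.268 to 0.822 CPM in the other kidneys. Cyp11b1, which makes corticosterone, stood at 133 against 0 to 0.290 CPM, and the cholesterol carrier Star, the most abundant of the list in this kidney, at 205 against 6.97 to 10.6 CPM. Of the other defining genes, Cyp11a1 reached 55.4, Nr5a1 18.5 and the corticotropin receptor Mc2r 14.1 CPM there.

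The 8 adrenal medulla markers summed to 63.7, 61.8 and 93.5 CPM in control kidneys 1, 2 and 3 and 34.2, 595 and 51.1 CPM in FeD kidneys 1, 2 and 3. Slc18a1, their most abundant gene outside FeD kidney 2, was detected in all 6 kidneys at 31.7 to 85.8 CPM. The defining genes were near 0 outside FeD kidney 2. Th was at 80.1 CPM in FeD kidney 2 and 0.0498 to 0.215 CPM elsewhere, Dbh at 83.1 and 0.0498 to 0.448 CPM, Chga at 125 and 0.124 to 0.752 CPM, and Pnmt at 12.7 and 0 to 0.0619 CPM. The results on the members and the gene lists are therefore given also without FeD kidney 2.

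Nr3c1, the receptor itself (chromosome 18, 39570199 to 39650955, minus strand, mm9 build), was the only one of the 8 genes with a lower level in FeD kidneys. Its normalized counts were 2537, 2651 and 2455 in control kidneys 1, 2 and 3 and 1789, 1920.3 and 2409 in FeD kidneys 1, 2 and 3. FeD kidney 3 lay just under the lowest control kidney and FeD kidneys 1 and 2 lay well below it, so the groups did not overlap but came close. The means were 2548 ± 98.4 in control and 2039 ± 327 in FeD kidneys (SD, n = 3), and the log2 fold change was -0.32 ± 0.11 (standard error). Without FeD kidney 2 it was -0.26. In whole kidney RNA, fewer cells of a type that expresses a gene and less of its RNA per cell cannot be told apart, and this holds for each gene described.

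Hsd11b1, the 11-beta-hydroxysteroid dehydrogenase that regenerates corticosterone (chromosome 1, 195047824 to 195090248, minus strand), was higher in FeD kidneys. Normalized counts were 485, 458 and 404 in control kidneys 1, 2 and 3 and 623, 801 and 784 in FeD kidneys 1, 2 and 3. Every FeD kidney was above every control kidney, with FeD kidney 1 the lowest of the 3. The means were 449 ± 41.3 in control and 736 ± 98.3 in FeD kidneys (SD, n = 3), a log2 fold change of 0.71 ± 0.12, and 0.67 without FeD kidney 2. Of all 8 genes, 7 were higher in every FeD kidney than in any control kidney, a separation found in 28.4% of the 15145 tested genes, and 1 was lower in every FeD kidney, as in 29.7% of them. Nothing is read from these shares, because the choice of the genes used the same contrast. The exons of none of the 8 genes overlap those of another annotated gene.

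**Figure D1:**
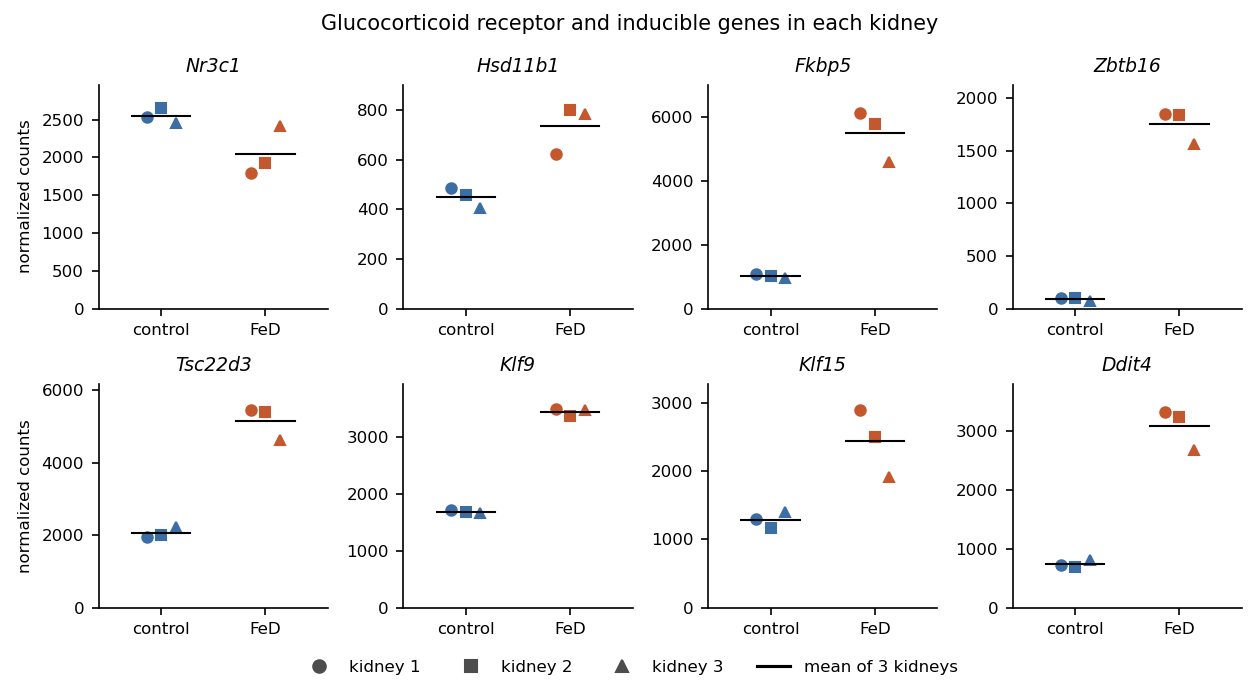
Normalized counts (y axis, from 0) of the 8 genes in each control and FeD kidney, with the marker shape giving the kidney's number and the line the mean of 3. Nr3c1 is lower and the 7 other genes are higher in FeD, with no overlap between the groups; Zbtb16 goes from a mean of 92.6 to 1750.2.

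Fkbp5 encodes an immunophilin that joins the receptor's Hsp90 complex and lowers its affinity for hormone, and receptor binding in its introns is a textbook case of induction. The mm9 sequence of the gene (chromosome 17, 28536040 to 28654469, minus strand) with 10000 bases on either side was searched on both strands for the receptor's consensus palindrome, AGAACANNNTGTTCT, and for a relaxed form, GNACANNNTGTNC, which contains it. Fkbp5 held 2 full palindromes, both in introns. They are shown 5′ to 3′ on the gene's strand with 10 bases on either side and the palindrome in capitals, chr17:28579354-28579388 first and chr17:28557256-28557290 second:
Fkbp5 intron site nearer the start: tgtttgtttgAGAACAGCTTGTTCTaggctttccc
Fkbp5 intron site farther from the start: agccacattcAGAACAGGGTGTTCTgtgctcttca

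The sites lie 75091 and 97189 bases downstream of the annotated start of Fkbp5. Among 17674 mm9 windows of the same length, 3.32% held at least 1 full palindrome and 0.0849% at least 2. The relaxed form matched 12 times around Fkbp5, a number reached by 0.0453% of those windows. Such matches describe letters and not binding, and the windows were not matched for base composition.

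In the kidneys, Fkbp5 had normalized counts of 1099, 1037 and 954 in control kidneys 1, 2 and 3 and 6119.9, 5774 and 4588 in FeD kidneys 1, 2 and 3. The control kidneys lay close together, and the lowest FeD kidney, FeD kidney 3, was still far above them. The means were 1029.6 ± 72.7 in control and 5494 ± 803 in FeD kidneys (SD, n = 3), which is 5.34 times the control level and a log2 fold change of 2.42 ± 0.12. Without FeD kidney 2 the log2 fold change was 2.40. By size of log2 fold change Fkbp5 ranked 116 of the 15145 tested genes from the top. On the same scale Ddit4 ranked 170, Tsc22d3 481, Klf9 702, Klf15 849, Hsd11b1 1288 and Nr3c1 11222.

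Zbtb16, a zinc finger repressor that is nearly silent in many tissues until hormone is given (chromosome 9, 48462416 to 48644050, minus strand), had the largest difference of the 8. Its normalized counts were 104, 99.6 and 73.8 in control kidneys 1, 2 and 3 and 1848, 1837 and 1566 in FeD kidneys 1, 2 and 3. It was low in all control kidneys and of similar height in FeD kidneys 1 and 2, with FeD kidney 3 somewhat lower. Raw counts in the control kidneys, 109, 90 and 83, were well above the floor of 3. The means of 92.6 ± 16.5 in control and 1750.2 ± 159.8 in FeD kidneys (SD, n = 3) differ 18.9-fold, a log2 fold change of 4.24 ± 0.14 that ranked 22 of all tested genes and was 4.23 without FeD kidney 2.

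Tsc22d3 (chromosome X, 137074067 to 137135198, minus strand) encodes the leucine zipper protein GILZ, which binds and restrains inflammatory transcription factors. Normalized counts of Tsc22d3 were 1965, 2020 and 2223 in control kidneys 1, 2 and 3 and 5445, 5412 and 4618 in FeD kidneys 1, 2 and 3. All FeD kidneys were well above the control mean, and the groups lay far apart. The means were 2069 ± 136 in control and 5158 ± 468 in FeD kidneys (SD, n = 3), a log2 fold change of 1.32 ± 0.09 with all kidneys and 1.30 without FeD kidney 2. RefSeq promoters, 250 bases before to 50 after each start on the GRCm38.p6 build, were searched in 6 of the 8 genes. Nr3c1 and Zbtb16 were left out of this search. The palindromes, full or relaxed, were in 0 of these 6 genes' promoters. Of all genes with a promoter, 0.0111% held the full and 0.537% the relaxed form. The receptor's half-site TGTTCT, which is also a part of the full palindrome, was in 1, that of Tsc22d3 (in 1 of its 3 promoters, where the 5 other genes have 1 each), and in 21.3% of the 27025 genes with a promoter in the table. The 250 bases before this start of Tsc22d3 (chrX:140600523-140600772, minus strand, half-site in capitals) read 5′ to 3′:
Tsc22d3 promoter: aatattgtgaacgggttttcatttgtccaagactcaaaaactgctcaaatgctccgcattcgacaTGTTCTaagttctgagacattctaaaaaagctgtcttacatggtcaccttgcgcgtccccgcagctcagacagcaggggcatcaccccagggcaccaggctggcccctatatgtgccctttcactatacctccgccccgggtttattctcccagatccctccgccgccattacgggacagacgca

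Klf9 and Klf15 encode Krüppel-like zinc finger factors that the receptor induces directly in several tissues. Klf9 (chromosome 19, 23215716 to 23241401, plus strand) gave normalized counts of 1719, 1697 and 1663 in control kidneys 1, 2 and 3 and 3495, 3379.7 and 3489 in FeD kidneys 1, 2 and 3. Relative to their means, both groups were the tightest of all 8 genes, and FeD kidneys stood at 2.04 times the control level. Its log2 fold change was 1.03 ± 0.05, and 1.06 without FeD kidney 2.

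Klf15 (chromosome 6, 90412570 to 90425232, plus strand), a regulator of amino acid and glucose metabolism, is shown with a relaxed palindrome of its intron. It lies at chr6:90421374-90421406 (mm9, plus strand), 8814 bases from the annotated start, and is 1 of 5 relaxed matches around the gene, a number reached by 0.0955% of 75384 windows of that length:
Klf15 intron site: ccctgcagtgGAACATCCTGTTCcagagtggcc

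Normalized counts of Klf15 were 1294, 1163 and 1398 in control kidneys 1, 2 and 3 and 2890.5, 2493 and 1912 in FeD kidneys 1, 2 and 3. Relative to their mean, the FeD kidneys spread more widely than in any other of the 8 genes, from FeD kidney 3, the lowest, to FeD kidney 1, and the groups did not overlap. The means were 1285 ± 118 in control and 2432 ± 492 in FeD kidneys (SD, n = 3), and the log2 fold change was 0.92 ± 0.14 with all kidneys and 0.92 without FeD kidney 2. The same search found 1 relaxed match around Hsd11b1, 1 around Klf9 and 0 around Tsc22d3 and Ddit4, and 0 full palindromes around these 4 genes and Klf15; Nr3c1 and Zbtb16 were not searched. Windows of these 4 lengths held at least 1 relaxed match in 64.9%, 53.5%, 74.2% and 31.2% of cases.

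Ddit4 (chromosome 10, 59412423 to 59414518, minus strand) encodes REDD1, an inhibitor of mTORC1 that is induced by glucocorticoids and also by low oxygen and energy stress. Normalized counts of Ddit4 were 724, 695 and 811 in control kidneys 1, 2 and 3 and 3333, 3249.9 and 2687 in FeD kidneys 1, 2 and 3. All FeD kidneys were far above all control kidneys, and FeD kidney 3 was again the lowest of the 3. The means were 743 ± 60.7 in control and 3090.1 ± 352 in FeD kidneys (SD, n = 3), 4.16-fold apart, with a log2 fold change of 2.05 ± 0.10 and of 2.04 without FeD kidney 2. Because Ddit4 is a known target of hypoxia-inducible factors, the promoters were also searched for their core motif ACGTG on both strands. It was in 4 of the 6 genes' promoters (Fkbp5, Klf9, Klf15 and Ddit4) and in 21.8% of all genes with a promoter. The 250 bases before the start of Ddit4 (chr10:59951771-59952020, GRCm38.p6, minus strand) follow with that motif in capitals:
Ddit4 promoter: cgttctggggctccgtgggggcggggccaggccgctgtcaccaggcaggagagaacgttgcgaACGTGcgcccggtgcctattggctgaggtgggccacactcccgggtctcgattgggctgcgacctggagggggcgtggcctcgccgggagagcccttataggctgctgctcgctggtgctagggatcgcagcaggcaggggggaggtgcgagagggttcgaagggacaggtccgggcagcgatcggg

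**Figure D2:**
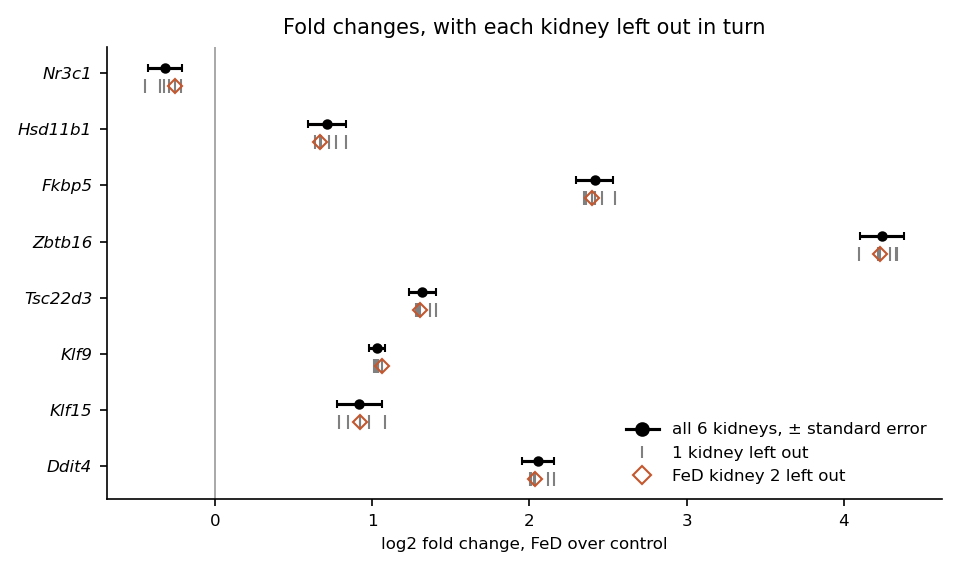
Log2 fold change of FeD over control for the 8 genes (black circles, bars ± standard error) and the values with each of the 6 kidneys left out in turn (grey ticks; open diamonds without FeD kidney 2). Each gene keeps its direction; Nr3c1 ranges from -0.45 to -0.21 and Zbtb16 from 4.09 to 4.34.

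To compare levels between genes, normalized counts per kb of exon were expressed as CPM per kb (mean ± SD, n = 3). In control kidneys the order from the top was Klf9 (29.1 ± 0.484), Klf15 (28.5 ± 2.61), Tsc22d3 (26.7 ± 1.75), Ddit4 (24.7 ± 2.02), Nr3c1 (19.2 ± 0.742), Hsd11b1 (9.28 ± 0.854), Fkbp5 (9.13 ± 0.644) and Zbtb16 (1.02 ± 0.181). Neighbours from Klf9 down to Ddit4 overlapped between kidneys and so did Hsd11b1 and Fkbp5, whereas Nr3c1 and Zbtb16 each stood apart from their neighbours. In FeD kidneys the order was Ddit4 (103 ± 11.7), Tsc22d3 (66.5 ± 6.04), Klf9 (59.3 ± 1.12), Klf15 (53.9 ± 10.9), Fkbp5 (48.7 ± 7.12), Zbtb16 (19.2 ± 1.75), Nr3c1 (15.4 ± 2.47) and Hsd11b1 (15.2 ± 2.03). Ddit4 stood clear of Tsc22d3 and Fkbp5 clear of Zbtb16; the other neighbours overlapped. The receptor, which lay above Fkbp5 and Zbtb16 in control kidneys, had a lower mean than all 6 induced genes in FeD kidneys and overlapped Zbtb16 and Hsd11b1.

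**Figure D3:**
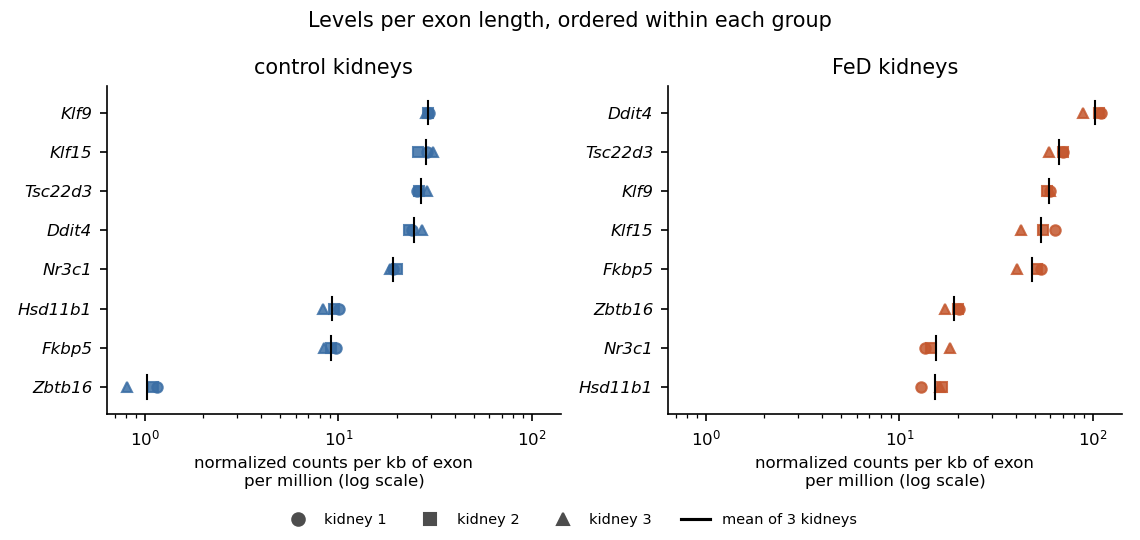
CPM per kb of exon (log axis) in each control kidney (left) and FeD kidney (right), with genes ordered by the mean of 3 kidneys (vertical line). Zbtb16 is the lowest in control at 1.02, and Ddit4 is the highest in FeD at 103.

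FeD kidney 2, with its adrenal transcripts, did not stand apart in these genes. Its level relative to the mean of FeD kidneys 1 and 3 was between 0.915 (Nr3c1) and 1.14 (Hsd11b1) times. FeD kidneys 1 and 3 showed the same directions as FeD kidney 2 in all 8 genes. In these Cyp21a1 was at 0.336 and 0.822 CPM and Th at 0.112 and 0.0967, but not all markers were as in control. Mc2r was at 2.69 and 2.03 CPM against 0.0619 to 0.429 in control, and Akr1b7, named after its value was seen, at 37.9 CPM in FeD kidney 3 against 10.5 to 11.8. Of the 7 genes that were higher in FeD kidneys, 5 were lowest in FeD kidney 3 and 6 were highest in FeD kidney 1. Klf15 was at 0.710 and Fkbp5 at 0.771 times the mean of the other FeD kidneys in FeD kidney 3, and Nr3c1 at 1.30 times.

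**Figure D4:**
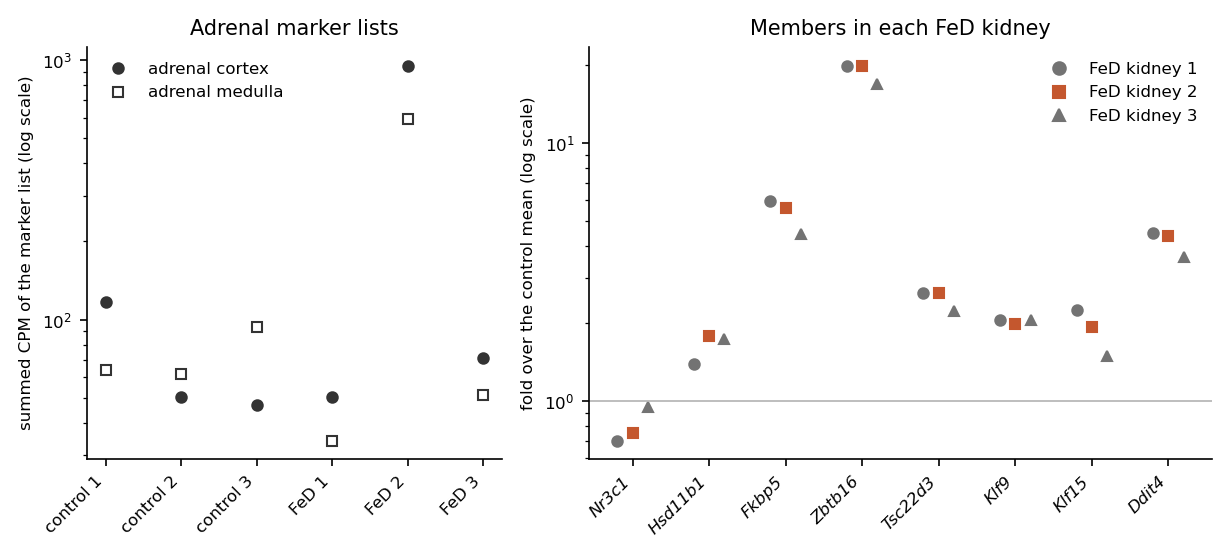
Left, summed CPM (log axis) of the adrenal cortex (filled circles) and medulla (open squares) marker lists in each kidney. Right, each FeD kidney's level of the 8 genes as a fold over the control mean (log axis). The marker sums peak in FeD kidney 2 at 951 and 595 CPM, while the folds of FeD kidney 2 lie near those of FeD kidneys 1 and 3.

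The labels give no sex. Xist, transcribed from the inactive X chromosome, was at 863, 797 and 900.4 CPM in control kidneys 1 and 2 and FeD kidney 3 and at 2.34, 1.57 and 2.69 in control kidney 3 and FeD kidneys 1 and 2, which in turn held the Y-linked Ddx3y at 76.6, 104 and 129 CPM. FeD kidney 3 thus differs from the other FeD kidneys in this respect too. Among kidneys low in Xist, FeD over control was 0.756-fold in Nr3c1, 1.76-fold in Hsd11b1, 6.24-fold in Fkbp5 and 25.0-fold in Zbtb16. Among kidneys high in Xist the same ratios were 0.929, 1.66, 4.30 and 15.3. Tsc22d3, itself on the X chromosome, was 2.44-fold and 2.32-fold, Klf9 2.07-fold and 2.04-fold, Klf15 1.93-fold and 1.56-fold, and Ddit4 4.06-fold and 3.79-fold. Each gene kept its direction in both, with 1 kidney in 1 of the groups each time, so the difference between them was not tested.

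The genes most like each of the 8 across the 6 kidneys were listed by Pearson correlation of log2 normalized counts among 12925 other tested genes with a mean of at least 50. Nearest to Nr3c1 were Clic4 (0.997) and Fut9 (0.996), and to Hsd11b1 Stam (0.997) and Ankle2 (0.997). Fkbp5 was closest to Dcdc2a (0.999) and Hsd17b2 (0.999), and Zbtb16 to Arrdc3 (1.00) and Fbxl20 (1.00). For Tsc22d3 these were Ankrd37 (0.999) and Sdr42e1 (0.999), for Klf9 Tle1 (1.00) and Tapt1 (0.999), for Klf15 Xrcc3 (0.997) and Per2 (0.994) and for Ddit4 Sdr42e1 (1.00) and Maff (0.999). Tsc22d3 and Ddit4 had a neighbour, Sdr42e1, in common. Because the 6 kidneys form the same groups for every gene, any gene with tight and separate groups correlates highly, and 8 to 153 genes per member passed 0.99.

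A wider list of 35 genes known to be induced by glucocorticoids in one tissue or another was tested gene by gene with edgeR's quasi-likelihood test over all 15145 tested genes. Of these, 34 were tested (Tat was too low), 22 rose and 3 fell in FeD kidneys at an adjusted P under 0.05, against 22.4% and 23.3% of all tested genes. At least 2-fold rises were seen in 14 genes, against 4.34% of all tested genes, and 2-fold falls in 0, against 5.69%. The list's median log2 fold change was 0.85, and that of all tested genes was -0.00. Without FeD kidney 2, 22 genes of the list rose and 2 fell, where 21.9% and 20.8% of all genes did. With FeD kidney 3 left out instead, 26 genes of the list rose and 4 fell, and 3937 and 3817 of all tested genes did. This list and those below were compiled by hand with earlier results of these data known. Their counts beside the shares of all genes are therefore a description, and nothing is read from the difference.

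Cdkn1a, the cell cycle inhibitor p21, had normalized counts of 403, 412 and 472 in control kidneys 1, 2 and 3 and 3562, 3038 and 2614 in FeD kidneys 1, 2 and 3. The groups lay far apart, and edgeR gave a log2 fold change of 2.84 ± 0.12 (adjusted P = 8.9e-06). The study also counts Cdkn1a among the target genes of a hypoxia-inducible factor. Which signal changed the genes of this list was not tested. Map3k6, a kinase of stress signaling, had 136, 113 and 124 in control kidneys 1, 2 and 3 and 955, 965 and 562 in FeD kidneys 1, 2 and 3, and FeD kidney 3 was the lowest of the FeD kidneys, as in Fkbp5. Its log2 fold change was 2.73 ± 0.22 (adjusted P = 7.1e-05) by edgeR. Map3k6 is 1 of 5 genes of the list with a relaxed palindrome among the 28 whose promoters were searched, where 0.537% of all genes with a promoter hold it. The others are Sgk1 and, named after their values were seen, Fam107a, Mt1 and Trim63, with log2 fold changes of 0.33 ± 0.09, -0.26 ± 0.30 and 0.11 ± 0.30; Mt1 and Trim63 did not pass edgeR's test. Sgk1, a kinase that promotes sodium uptake, was the 1 gene of the list with the full palindrome there, which 3 of 27025 genes hold, and has it in 1 of 6 promoters. The half-site was in 7 of the 28 genes, near the 21.3% of all genes. The hypoxia core motif ACGTG was in 9 of the 28, where 21.8% of all genes with a promoter hold it. The stretches lie at chr4:133240627-133240659 and chr10:21993691-21993725 (GRCm38.p6, plus strand, palindrome in capitals):
Map3k6 promoter: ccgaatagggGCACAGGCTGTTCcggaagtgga
Sgk1 promoter: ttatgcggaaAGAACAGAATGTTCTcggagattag

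Sgk1, named here for that motif after its counts were seen, stood at 4664, 4886 and 6519.5 in control kidneys 1, 2 and 3 and 8676, 9391 and 11725 in FeD kidneys 1, 2 and 3 normalized counts, higher in every FeD kidney; edgeR gave a log2 fold change of 0.89 ± 0.15 (adjusted P = 0.0023). Angptl4, an inhibitor of lipoprotein lipase, rose from 634 ± 70.4 to 4388 ± 1189 normalized counts (SD, n = 3), and Pdk4, which shuts off pyruvate dehydrogenase, from 1034 ± 43.1 to 3727 ± 1303. Their log2 fold changes were 2.79 ± 0.20 (adjusted P = 5.2e-05) and 1.85 ± 0.24 (adjusted P = 0.00063) by edgeR. Igfbp1, which binds insulin-like growth factors, rose by 2.50 ± 0.37 (adjusted P = 0.0011) and the insulin receptor substrate Irs2 by 1.48 ± 0.19 (adjusted P = 0.00057) on the log2 scale in the same edgeR test. Lpin1, a phosphatidate phosphatase, rose by 1.07 ± 0.28 (adjusted P = 0.014) by edgeR, but FeD kidney 3 was at 1042 against at most 977 in control, and the call was lost without control kidney 3 or FeD kidney 1 (log2 fold changes of 1.03 and 0.88).

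Dusp1, a phosphatase of MAP kinases, rose by 1.22 ± 0.16 (adjusted P = 0.00069), Nfkbia, the inhibitor of NF-kappa-B, by 1.12 ± 0.12 (adjusted P = 0.00022), and Errfi1, a feedback inhibitor of ErbB receptors, by 1.55 ± 0.14 (adjusted P = 0.00014) on the log2 scale by edgeR. The clock repressor Per1 rose by 1.08 ± 0.08 (adjusted P = 4.5e-05), the factor Cebpd by 1.95 ± 0.17 (adjusted P = 0.0001) and the chemokine receptor Cxcr4 by 1.14 ± 0.11 (adjusted P = 0.00014) in that edgeR test. Lcn2, a carrier of siderophores, rose by 2.94 ± 0.30 (adjusted P = 0.00021) by edgeR and was highest in FeD kidney 3, at 887 normalized counts against 529 and 408 in FeD kidneys 1 and 2. The 3 genes that fell were Cdkn1c, the cell cycle inhibitor p57, at -0.89 ± 0.09 (adjusted P = 0.00015) on edgeR's log2 scale, the transglutaminase Tgm2 with -0.56 ± 0.09 (adjusted P = 0.0019), and the repressor Bcl6, named after its value was seen, with -0.73 ± 0.25 (adjusted P = 0.043) and overlapping groups, a call lost without FeD kidney 2 (log2 fold change -0.52) and also without control kidney 1, control kidney 3 or FeD kidney 1 and with a covariate for Xist (range over the kidneys left out -1.02 to -0.52).

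Some of the most familiar renal and hepatic targets did not pass the test, and all were named after their values were seen. Pck1, the gluconeogenic enzyme, had 47203, 52519.6 and 48399 in control kidneys 1, 2 and 3 and 56755, 62309.8 and 41552 in FeD kidneys 1, 2 and 3 normalized counts, and G6pc, which releases free glucose, had 7695, 8280.4 and 7698 in control kidneys 1, 2 and 3 and 7889, 11826 and 4007 in FeD kidneys 1, 2 and 3. In both, FeD kidney 3 was below and FeD kidney 2 above all control kidneys. The metallothionein Mt1 showed 3706, 4094 and 4274 in control kidneys 1, 2 and 3 and 3911, 4555 and 1658 in FeD kidneys 1, 2 and 3, with FeD kidney 3 again far below the rest. Scnn1a, the alpha subunit of the epithelial sodium channel, had a log2 fold change of 0.14 ± 0.11. A difference that misses the threshold is not thereby shown to be absent.

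**Figure D5:**
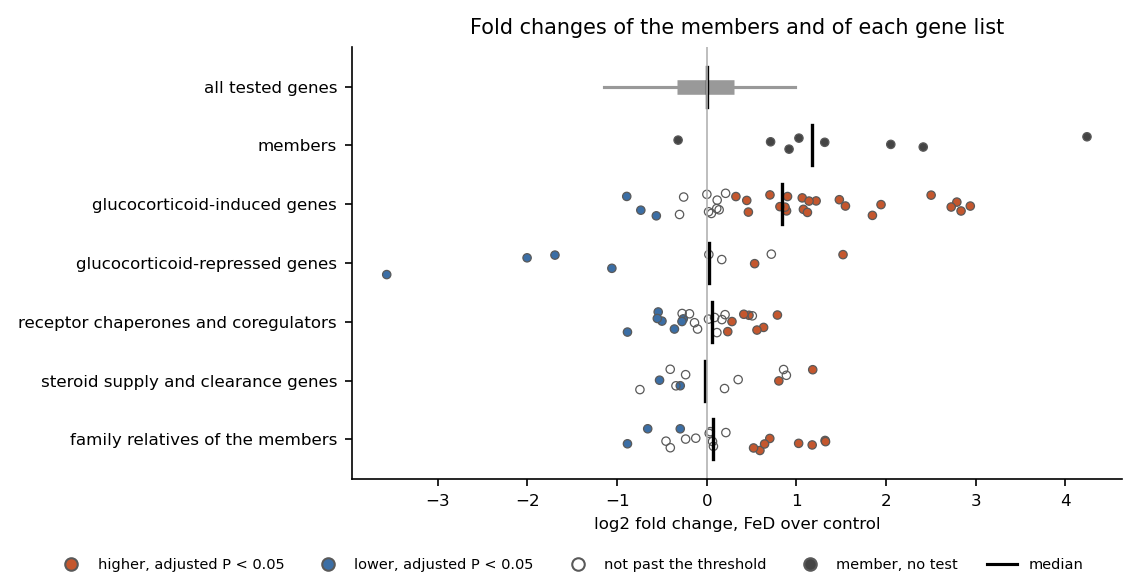
Log2 fold change of FeD over control for each tested gene of the lists (colored where the adjusted P of edgeR's test was under 0.05, open otherwise), with the members in dark grey and the median of each as a vertical line. For all 15145 tested genes the bar spans the quartiles and the line percentiles 5 to 95, from -1.14 to 0.98; the induced list has its median at 0.85.

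Of 14 genes that glucocorticoids restrain, 9 were expressed highly enough to be tested, 2 rose and 4 fell (of all tested genes 22.4% and 23.3%), 1 and 4 of them by at least 2-fold (of all 4.34% and 5.69%), and the median log2 fold change was 0.02. Nos2, the inducible nitric oxide synthase, fell from 143, 91.8 and 73.8 normalized counts in control kidneys 1, 2 and 3 to 5.0, 10.4 and 10.4 in FeD kidneys 1, 2 and 3. All FeD kidneys were far below the control kidneys, and the log2 fold change was -3.57 ± 0.38 (adjusted P = 0.00024) by edgeR. The gelatinase Mmp9 fell with -2.00 ± 0.29 (adjusted P = 0.001), the collagenase Mmp13 with -1.69 ± 0.33 (adjusted P = 0.004) and the adhesion molecule Vcam1 with -1.06 ± 0.18 (adjusted P = 0.0022) on the log2 scale by edgeR. Il1b, a cytokine of myeloid cells, rose by 1.52 ± 0.40 (adjusted P = 0.016) by edgeR from at most 10.5 normalized counts in control to 40.0, 29.9 and 15.5 in FeD kidneys, and its call was lost without control kidney 2, control kidney 3 or FeD kidney 1 (log2 fold changes of 1.46, 1.52 and 1.19). The other riser, Icam1, named after its value was seen, rose by 0.54 ± 0.07 (adjusted P = 0.00089) by edgeR. Without FeD kidney 2 the counts were 2 and 4. Leukocyte markers moved in both directions beside these genes. Of 8 listed, 7 were among the genes counted and 5 were tested. By edgeR 3 rose and 2 fell, beside the shares of all genes given above. Named after their values were seen, the risers were Ptprc, Cd68 and Itgam, with log2 fold changes of 0.557, 1.115 and 1.373. Csf1r and Cd79a fell, with -0.448 and -2.379. The 7 genes summed to 97.1, 104 and 97.4 CPM in control kidneys 1, 2 and 3. In FeD kidneys 1, 2 and 3 the sum was 88.7, 95.6 and 91.0 CPM. Most abundant was Csf1r, and the part of the leukocyte markers in these changes was not tested.

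The receptor's folding machinery and coregulators were all 24 tested, and 7 rose while 7 fell, 0 by 2-fold, where 22.4% and 23.3% of all tested genes did and 4.34% and 5.69% by 2-fold, with a median log2 fold change of 0.05. Fkbp4, the immunophilin that competes with Fkbp5 in the receptor complex and promotes its transport, changed opposite to Fkbp5. Its normalized counts were 4678, 4936 and 5273 in control kidneys 1, 2 and 3 and 2741, 2332 and 2990.1 in FeD kidneys 1, 2 and 3. Every FeD kidney was far below every control kidney, and the log2 fold change was -0.88 ± 0.10 (adjusted P = 0.0003) by edgeR. Stip1, which links Hsp70 to Hsp90, fell with -0.50 ± 0.06 (adjusted P = 0.00051) on the log2 scale by edgeR. The coactivator Ncoa2 rose by 0.64 ± 0.07 (adjusted P = 0.00032) and the acetyltransferase Crebbp by 0.56 ± 0.06 (adjusted P = 0.00028) in that edgeR test. Without FeD kidney 2, 6 rose and 7 fell.

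Of 12 tested genes that set the hormone's supply and clearance, 2 rose and 2 fell, beside 22.4% and 23.3% of all tested genes. Their median on the log2 scale was -0.02. Without FeD kidney 2 the counts were 2 and 1, but the genes that rose were not the same. Srd5a3, named after its value was seen, then passed edgeR's test (adjusted P = 0.048) and Abcb1a did not (adjusted P = 0.069). Hsd11b2, which inactivates corticosterone, had normalized counts of 5379.6, 5634 and 5817 in control kidneys 1, 2 and 3 and 5044, 4600.2 and 4074 in FeD kidneys 1, 2 and 3. The FeD kidneys lay below the control kidneys, in contrast to Hsd11b1; the log2 fold change by edgeR was -0.29 ± 0.09 (adjusted P = 0.025), a call that was lost without control kidney 2, control kidney 3 or FeD kidney 2 (log2 fold changes of -0.30, -0.27 and -0.28). Por, the reductase that serves cytochrome P450 enzymes, fell with -0.53 ± 0.11 (adjusted P = 0.0052) on the log2 scale by edgeR. H6pd, named after its value was seen, supplies Hsd11b1 with NADPH in the endoplasmic reticulum; it rose by 0.81 ± 0.08 (adjusted P = 0.00019) by edgeR and was higher in each FeD kidney than in any control kidney. Abcb1a, an efflux pump, rose by 1.18 ± 0.36 (adjusted P = 0.029) by edgeR, but FeD kidney 1 lay within the control range and the call was lost on leaving out any kidney other than FeD kidney 1, at log2 fold changes of 0.98 to 1.30, some of them larger than with all kidneys.

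Relatives of the 8 genes were examined last, with Fkbp4, Nr3c2 and Hsd11b2 also on the lists above. Of 21, 20 were tested, 8 rose and 3 fell, 4 of them rising at least 2-fold (over all tested genes 22.4% and 23.3%, and 4.34% for 2-fold rises), with a median log2 fold change of 0.07; without FeD kidney 2 the counts were 8 and 2. Klf6 had normalized counts of 1006, 1173 and 1102 in control kidneys 1, 2 and 3 and 2811, 2623 and 2787 in FeD kidneys 1, 2 and 3 and Klf4 294, 296 and 314 in control kidneys 1, 2 and 3 and 705, 778 and 779 in FeD kidneys 1, 2 and 3. Both were clearly separated, with log2 fold changes of 1.33 ± 0.07 (adjusted P = 1.7e-05) and 1.32 ± 0.08 (adjusted P = 3.1e-05) by edgeR. Klf11 rose by 1.03 ± 0.10 (adjusted P = 0.0002) and the Ddit4 relative Ddit4l by 1.18 ± 0.23 (adjusted P = 0.0041) on the log2 scale by edgeR, Ddit4l being highest in FeD kidney 3 where Ddit4 was lowest. The relatives of Tsc22d3 stayed near their control levels, with log2 fold changes of 0.04 ± 0.07 in Tsc22d1, 0.07 ± 0.13 in Tsc22d2 and -0.12 ± 0.07 in Tsc22d4, none past the threshold. The mineralocorticoid receptor Nr3c2, which binds corticosterone as well, had 359, 349.6 and 329 in control kidneys 1, 2 and 3 and 258, 310.3 and 313 in FeD kidneys 1, 2 and 3 normalized counts, lower in every FeD kidney, with a log2 fold change of -0.23 ± 0.10 that did not pass the test; it and the Tsc22d relatives were named after their values were seen.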

How the data were processed

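Per the labels and methods of the study, the authors isolated total RNA with TRIzol, prepared TruSeq libraries of polyadenylated RNA, trimmed and aligned the reads to mm9 with TopHat2 2.0.11 and used HTSeq to make the deposited raw counts of reads on genes, which were not normalized. The gene annotation and the strand setting of the counting were not given in the sources used here. Genes overlapping on opposite strands, such as Tgm2, can therefore hold reads of each other or lack reads of the overlap.

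The tables hold 24422 genes. In edgeR 4.0.16 (R 4.3.3), filterByExpr kept 15145 of them, libraries were scaled by TMM, P values of the quasi-likelihood test were adjusted after Benjamini and Hochberg over all genes kept, and standard errors were derived from the F statistic. Permuting 3 kidneys against 3 exactly cannot give any single gene a P under 0.1. The procedure was tested on simulated data. Kidneys were grouped by their labels. Replicate numbers 1 to 3 occur in both groups, but they name different pups of differently fed dams and were not used as a pairing; libraries of a group differed by more than counting noise. Exon lengths and positions came from GENCODE's annotation of NCBIM37 (mm9), promoters from RefSeq (GRCm38.p6). Alternatives were DESeq2 1.42.0, other scalings and filters, adrenal, erythroid and mitochondrial genes left out, each kidney left out and, chosen after seeing the data, a covariate for high Xist.

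The members and gene lists were chosen with earlier results of these data known. Named by rule were the 8 members; of each list the genes changed at least 2-fold or, in a direction with none, the 2 with the smallest P (not every gene so named was used here); of each marker list its most abundant and defining genes; and the 2 genes best correlated with each member. Counts depend on depth, and all values are of whole kidneys.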

Additional observations from a re-analysis of the deposited data

How the results depend on the processing

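The log2 fold changes of the 8 members kept their direction under all 14 alternatives and moved by less than the spread between kidneys, except that Klf9, whose spread is very small, gave 1.06 without FeD kidney 2 and 1.01 to 1.06 over the kidneys left out. With the Xist covariate, chosen after seeing the data, Nr3c1 was at -0.26 and Klf15 at 0.79. Same-numbered kidneys shared no common sign of correlation (-0.30, 0.30 and 0.10), and with the replicate block, which pairs them, 3100 genes rose and 3344 fell, against 3397 and 3527, and 22 genes of the induced list rose. Small counts moved by more than 1.5 times. Leaving out 1 kidney at a time, the number of repressed genes that rose ranged from 1 to 3, of supply and clearance genes that rose from 1 to 4 and that fell from 1 to 3, and of family relatives that fell from 1 to 3. Requiring 10 counts in every kidney, 1 repressed gene rose and 2 fell, since fewer genes were tested. Beyond the smaller number of kidneys, the cause was not tested. Genes near the floor of 3 counts, and Il1b and Mmp13 with fewer than 50 normalized counts, are limited by depth, and litter and diet were not separable.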

Other observations

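Some marker lists were read to check the tissue; over all genes tested with edgeR, 22.4% rose and 23.3% fell. Of the 5 hepatocyte markers, 4 were tested and 3 rose, and the list summed to 88.7, 95.7 and 96.7 CPM in control kidneys 1, 2 and 3 and 316, 283 and 309.7 CPM in FeD kidneys 1, 2 and 3. Its most abundant gene over all kidneys together, the thyroxine carrier Ttr, had 39.1, 41.6 and 53.1 in control kidneys 1, 2 and 3 and 181, 135 and 165 in FeD kidneys 1, 2 and 3 CPM, while albumin (Alb) stayed at 0.145 to 1.82 CPM and Ahsg under 1 CPM. The 6 adipocyte markers summed to 435, 488 and 469.7 CPM in control kidneys 1, 2 and 3 and 503, 560.4 and 462 CPM in FeD kidneys 1, 2 and 3; 6 were tested and 4 fell, while Fabp4, the most abundant, which endothelial cells also express, rose. The 7 erythroid markers summed to 138, 198 and 170 CPM in control kidneys 1, 2 and 3 and 63.6, 43.7 and 85.3 CPM in FeD kidneys 1, 2 and 3, with Slc4a1 the most abundant and the 4 globin genes listed at 0 counts in every kidney. The 4 muscle markers stayed under 1 CPM each except in FeD kidney 1, where Acta1 reached 6.27 CPM, and Tnnt3 2.63.

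Control kidney 1 held some transcripts of steroid-making cells but hardly any Cyp21a1 and no Cyp11b1. Hsd3b1 stood there at 55.4 CPM, against 0.867 and 0.249 in control kidneys 2 and 3, and Cyp11a1 and Nr5a1 at 6.87 CPM each, with Cyp21a1 at 0.268 and Cyp11b1 at 0. Without this kidney the log2 fold changes of Fkbp5 and Zbtb16 were 2.46 and 4.34. Serpina6, the corticosteroid-binding globulin of plasma, was among the abundant transcripts, with 53639, 56539 and 60772 in control kidneys 1, 2 and 3 and 35112, 38148 and 55652 in FeD kidneys 1, 2 and 3 normalized counts; FeD kidneys 1 and 2 were below the control kidneys and FeD kidney 3 lay among them. All genes in the last sentences were picked with their values in view.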
